A study of Mus musculus with 21 samples.

Results

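Common lymphoid progenitors (CLP) of wild-type mouse bone marrow were compared with the lymphoid-biased multipotent progenitors (MPP4) of the same marrow, as the CLP level minus the MPP4 level of each gene. The comparison used 6 of the 21 libraries of the series, 3 for each population, chosen by their labels as wild type and as CLP or MPP4. It covered the 10895 of 11628 genes that reached 1 RPKM (reads scaled to transcript length and to the mapped reads of the library) in at least 3 of these 6 libraries. The other 15 libraries hold wild-type haematopoietic stem cells (HSC) and HSC, MPP4 and CLP of mice homozygous for a mutation of Etv6, an ETS-family repressor, written h.P214L in the labels. Those libraries entered the fit as separate groups, and the 8 mutant MPP4 and CLP libraries gave the same step in other mice. MPP4 cells had been sorted as negative for lineage antigens and positive for cKit, Sca1 and FLK2. CLP cells had been sorted as lineage-negative and Flk2-positive with low cKit and low Sca1, and positive for what the label writes as IL7. In both populations, number 1 was a female of 12 weeks, number 2 a male of 12 weeks and number 3 a female of 10 weeks, and no strain was stated. The labels count 3 wild-type mice, so same-numbered libraries of the 2 populations were read as sharing a mouse. The mutant mice were females or males of 10 or 12 weeks. HSC had been sorted like MPP4 but without FLK2 on the surface, and with CD150 and, as the label writes it, no CD38. The labels name no treatment, and no allele in the wild-type mice.

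MPP4 cells still make both myeloid and lymphoid offspring, and they depend on signals through the Flt3 receptor (FLK2). CLP cells respond to interleukin 7, and within this compartment the first B-lineage genes, the recombination-activating genes and parts of the pre-B-cell receptor are switched on. Transcription factors such as E2A, Ebf1 and Foxo1 drive that programme, and the stem cell and myeloid genes that multipotent cells express are silenced along the way. Bulk libraries average over all sorted cells, so a lower level can come from fewer cells of a type or from less RNA per cell, and these cannot be told apart.

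In CLP, the largest rises included early B-cell and plasmacytoid dendritic cell genes, and the largest falls included stem cell and myeloid genes. Ly6d, which marks the B-cell-biased part of the CLP compartment, stood at 646, 1060.3 and 937 RPKM in CLP numbers 1, 2 and 3 and at 6.54, 24.8 and 32.5 RPKM in MPP4 numbers 1, 2 and 3. Every CLP library was far above every MPP4 library, and the ratio of the mean RPKM was 41.4. At the other end, Pcp4l1, a small protein best known from the nervous system, stood at 1.11, 0.781 and 0.768 RPKM in CLP and at 31, 21.4 and 22.7 RPKM in MPP4, a ratio of 28.3 in favour of MPP4. Differences below are given on the log2(RPKM + 1) scale with their standard error, a scale that understates the change of genes near or under 1 RPKM. Where 3 values follow each other, they are those of numbers 1, 2 and 3.

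A gene was called at a limma adjusted p under 0.05 over all 10895 genes, and 1504 genes (13.8%) were called. Of these, 554 (5.08%) were higher and 950 (8.72%) lower in CLP. Changes of over 4-fold on the log2 scale were found for 42 genes higher and 40 lower, and changes of over 2-fold for 198 higher and 261 lower. The 3 CLP and 3 MPP4 values did not overlap for 3315 genes (30.4%), among them 1474 of the called genes, and 1499 of the called genes moved the same way between the libraries of each number. Groups that do not overlap move the same way in any pairing, so the 1499 is no separate support. Of the called genes, 33 rose from under 1 RPKM in every MPP4 library and 68 fell to under 1 RPKM in every CLP library. Such genes pass the filter only where every library of the other population reaches 1 RPKM. These 2 counts are therefore a description, given without a share over all genes. The median difference over all genes was −0.04. The number of genes lower was 626 without MPP4 number 1, against 950 with it. The lists of genes below are described by how many of their tested members were called, beside these shares. A member can pass the 1 RPKM filter through the population where it is higher, so these counts describe the lists and test nothing about them.

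**Figure D1:**
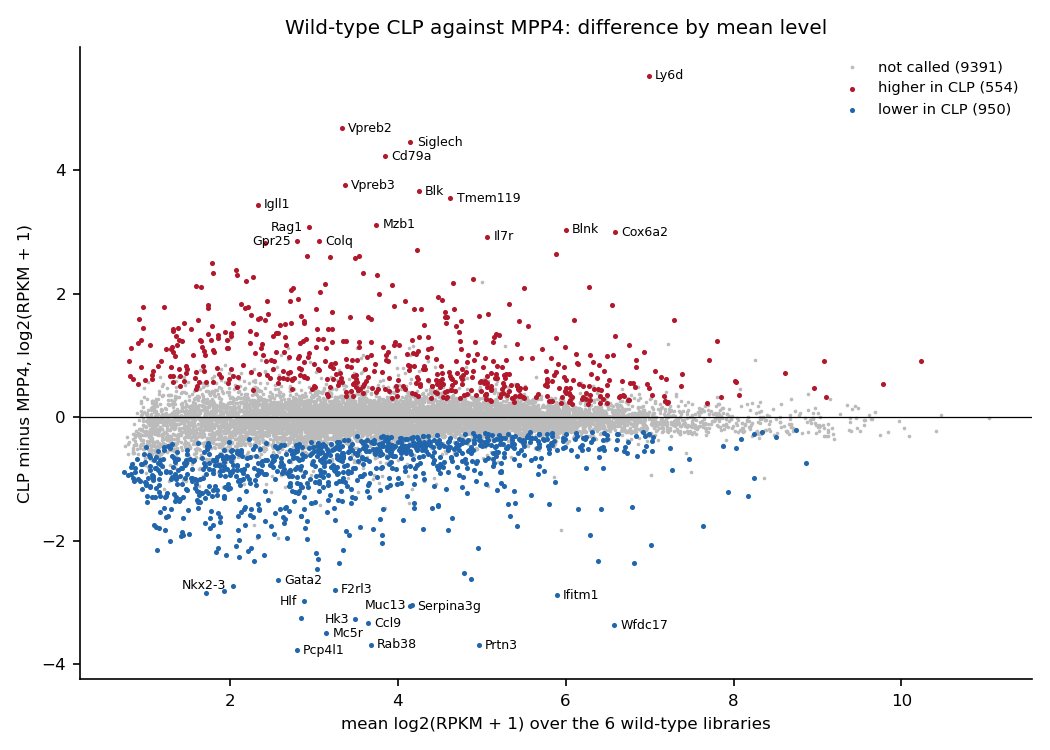
Each point is 1 of 10895 genes, with its mean log2(RPKM + 1) over the 6 wild-type libraries on the x axis and its CLP minus MPP4 difference on the y axis. Red points are the 554 genes called higher in CLP, blue points the 950 called lower, and the labelled genes are among the 15 largest rises and 15 largest falls with non-overlapping groups and a group mean of at least 10 RPKM. Ly6d stands above all others at 5.53, and the labelled falls reach −3.77 for Pcp4l1.

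Fewer genes were detected in 2 of the CLP libraries. CLP numbers 1, 2 and 3 reached 1 RPKM in 10520, 10528 and 10857 genes, against 10820, 10902 and 10850 in MPP4, and listed 23, 90 and 8 genes at 0, against 9, 6 and 8. The median RPKM over genes was 11.95 to 12.21 in CLP and 12.34 to 12.71 in MPP4. The medians did not overlap between the populations, and the part of these values in the genes that fell to under 1 RPKM in CLP was not tested. RPKM summed to 347744 to 358967 in CLP and to 353966 to 366363 in MPP4, which is no measure of depth, and depth was not recovered from the values. Pearson correlations over genes ran from 0.976 to 0.987 within a population and from 0.939 to 0.964 between them. The first principal component of the 6 libraries held 60.7% of the variance and separated the populations. The second, with 16.0%, held CLP number 2 and MPP4 number 2, the 2 male libraries, at its negative end.

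The genes of the sorting gate come first, since the cells were chosen on their proteins and these values check the labels. Il7r, the receptor chain that gives CLP cells their response to interleukin 7 (chr15:9506159-9529941 in GRCm38.p6), stood at 87.2, 92 and 94.6 RPKM in CLP and 7.37, 12.2 and 15.3 RPKM in MPP4. The groups were well apart, with a difference of 2.92 ± 0.25 (SE, limma adjusted p = 6.68e-08). Kit, the receptor for stem cell factor, stood at 36.6, 49 and 34.1 RPKM in CLP against 160.0, 164 and 128 RPKM in MPP4, a fall of 1.90 on the log2 scale that goes with the low cKit of the gate. Flt3, on which both populations were sorted as positive, was at 349, 393 and 355 RPKM in CLP and 416, 349 and 387 RPKM in MPP4. These groups overlapped, with a difference of -0.07 ± 0.12 (limma adjusted p = 0.788). Ly6a, which encodes Sca1, was lower in CLP at 15.3, 33.3 and 30.7 RPKM than in MPP4 at 52.5, 46.1 and 70.5 RPKM (limma adjusted p = 0.0267). That call rested on single libraries, since its adjusted p was 0.154 without CLP number 1, 0.0624 without MPP4 number 1 and 0.116 without MPP4 number 3. Cd34, a sialomucin of early progenitors, fell from 393, 369 and 349 RPKM in MPP4 to 184, 150.3 and 149 RPKM in CLP, with a difference of -1.20 ± 0.13. Cd48, carried by multipotent progenitors and lymphoid cells, was at 169 ± 18 RPKM (mean ± SD, n = 3) in MPP4 and 164 ± 16.1 RPKM in CLP.

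Beyond the receptor itself, the gate's signalling partners moved in both directions. Of 20 tested genes for the Il7r and Flt3 pathways, 3 rose and 5 fell, and the list's median was −0.14. Socs2, a feedback inhibitor of cytokine receptors, rose from 1.77, 1.80 and 3.46 RPKM to 15.2, 8.15 and 16.9 RPKM, with a difference of 2.09 ± 0.31 (limma adjusted p = 8.43e-05). Jak3, the kinase that binds the common cytokine receptor chain, fell by 0.58 on the log2 scale, from 52.1 ± 4.14 RPKM in MPP4 to 34.4 ± 0.954 RPKM in CLP. The common chain itself, Il2rg, was at 78.2 ± 1.81 RPKM in MPP4 and 68 ± 6.63 RPKM in CLP and was not called (limma adjusted p = 0.342). Crlf2, which pairs with Il7r to form the receptor for thymic stromal lymphopoietin, fell from 24.2, 18.2 and 21.6 RPKM to 16, 13.4 and 14.8 RPKM. Flt3l, the ligand of Flt3, fell from 5.30, 5.19 and 2.70 RPKM to 2.11, 0.911 and 1.10 RPKM, with no overlap between the groups.

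The B-cell genes rose as a group. Of 28 tested genes of the pre-B-cell receptor and B-cell signalling, 20 rose and 0 fell, against 5.08% and 8.72% of all genes, and the list's median difference was 0.56. Of 15 tested B-lineage transcription factors, 10 rose and 1 fell, with a median of 1.02. With the replicate number as a block in the fit, 1 gene of the signalling list fell. The summed level of the signalling list was 1639 to 1807 RPKM in CLP and 1012 to 1142 RPKM in MPP4.

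The surrogate light chain, made of a VpreB protein and the lambda5 protein of Igll1, stands in for the light chain before that gene is rearranged. Vpreb2 was at 49.7, 69.2 and 36.5 RPKM in CLP and at 0, 0.420 and 4.54 RPKM in MPP4, where number 1 is listed at 0. Igll1 stood at 16.3, 25.1 and 9.11 RPKM in CLP and 0.593, 0 and 1.24 RPKM in MPP4, with number 2 listed at 0. Vpreb1 rose from 1.85, 1.64 and 2.81 RPKM to 19.2, 24.9 and 11.5 RPKM, with a difference of 2.61 ± 0.51 (limma adjusted p = 0.00132). In all of these the lowest CLP library was above the highest MPP4 library, and CLP number 2 was the highest and number 3 the lowest of the CLP libraries. The Vpreb1 and Vpreb2 genes are near-identical copies, so how reads were shared between them is uncertain. Vpreb3, a chaperone that binds immunoglobulin chains during assembly, rose from 3.43, 2.69 and 0.359 RPKM to 32.9, 77.5 and 19.7 RPKM, again with number 2 highest.

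The signalling chains of the receptor rose by different amounts. Cd79a (Ig-alpha, chr7:24897497-24901858) was at 52.3, 115 and 38.3 RPKM in CLP and 1.65, 2.65 and 2.85 RPKM in MPP4, a difference of 4.22 ± 0.57 (limma adjusted p = 2.74e-05). The groups were far apart, and CLP number 2 held more than the other 2 CLP libraries together. Its partner Cd79b (Ig-beta) was already present in MPP4 at 46.8, 35.6 and 51.3 RPKM and reached 59.9, 75.3 and 63.7 RPKM in CLP. That smaller difference of 0.57 ± 0.15 was called at a limma adjusted p of 0.0156, with 0.0875 without CLP number 2 and 0.113 without MPP4 number 2. The adaptor Blnk, which links the receptor's kinases to calcium signalling, rose from 17.7, 16.5 and 33 RPKM to 173, 183 and 191 RPKM, a difference of 3.04 ± 0.22 (limma adjusted p = 1.23e-08). The Src-family kinase Blk rose from 5.79, 2.51 and 5.42 RPKM to 95.8, 41 and 74.4 RPKM. Blk was lowest in number 2 in both populations, whereas the surrogate light chain genes were highest in number 2 within CLP.

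Smaller rises ran through the rest of the signalling list. Dok3, an inhibitory adaptor, rose from 7.18, 5.17 and 6.08 RPKM to 21.9, 20.8 and 20.1 RPKM. Prkcb, a protein kinase C isoform that acts below the B-cell receptor, rose from 1.69, 2.23 and 2.39 RPKM to 6.35, 10.9 and 7.82 RPKM. Both had groups that did not overlap, with differences of 1.63 ± 0.30 and 1.57 ± 0.23. The inhibitory phosphatase Inpp5d (SHIP1) rose by 0.54 from a high level of 103 ± 4.80 RPKM, and the coreceptor Cd72 by 0.75 from 41.1 ± 3.10 RPKM.

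**Figure D2:**
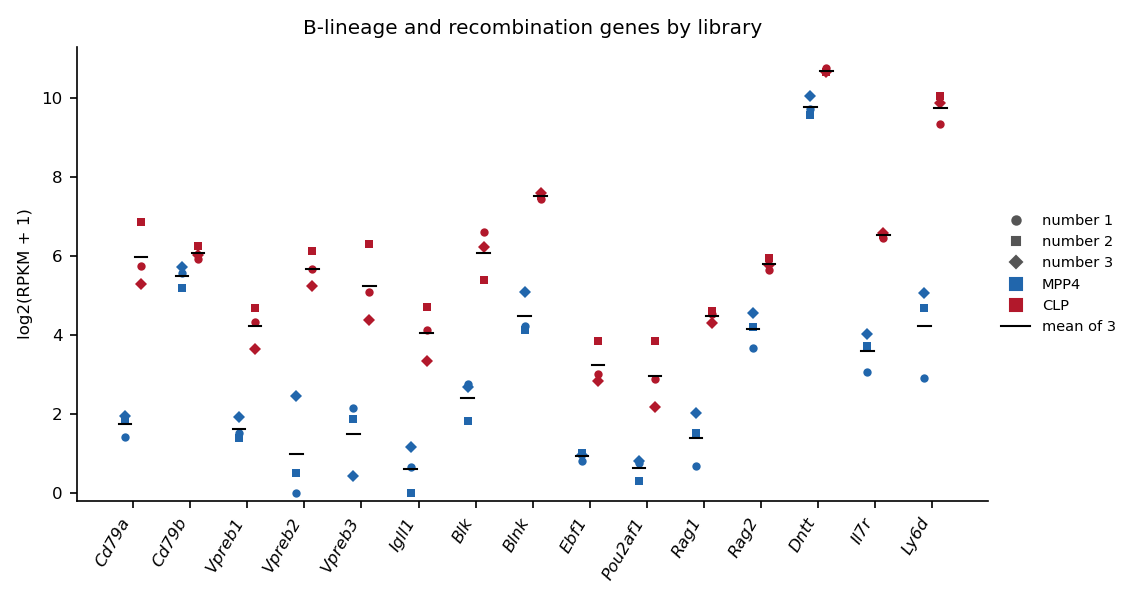
Level of B-lineage and related genes in each wild-type library on the log2(RPKM + 1) scale, with MPP4 in blue, CLP in red, marker shapes for numbers 1, 2 and 3, and a short line at each mean of 3 libraries. CLP number 2 is the highest CLP library for Cd79a, Vpreb3, Vpreb2, Igll1 and Ebf1 and the lowest for Blk.

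Among the transcription factors, Ebf1, which opens and activates B-cell genes, rose from 0.770, 1.0 and 0.943 RPKM to 7.05, 13.5 and 6.14 RPKM, a difference of 2.31 ± 0.32 (limma adjusted p = 3.87e-05). The lowest CLP library was above 6 RPKM and the highest MPP4 library near 1 RPKM. Pou2af1, the OCA-B coactivator of octamer-binding factors, rose from 0.705, 0.246 and 0.758 RPKM to 6.41, 13.3 and 3.50 RPKM. Spib, an ETS factor of B cells and plasmacytoid dendritic cells, rose from 1.25, 0.808 and 0.543 RPKM to 4.98, 12.2 and 10.4 RPKM, with a difference of 2.39 ± 0.33. Ebf1 and Pou2af1 were highest in CLP number 2, as was Spib.

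Factors with a broader role in lymphocytes rose less. Ets1, which supports several lymphoid lineages, went from 18.1, 17.6 and 21.8 RPKM to 37.2, 41.5 and 39.98 RPKM, and Bach2, a repressor that holds back plasma cell and myeloid genes, from 2.63, 3.16 and 3.43 RPKM to 6.04, 8.61 and 8.06 RPKM. Irf4, which acts in pre-B cells and plasma cells, stayed low and rose from 0.401, 0.653 and 0.762 RPKM to 1.73, 2.46 and 3.36 RPKM. Foxo1, which activates Il7r and the Rag genes, rose from 3.14, 4.40 and 4.59 RPKM to 8.85, 21.7 and 10.1 RPKM, but its limma adjusted p of 0.00832 was 0.068 without CLP number 2. Foxo3, its close relative, was the 1 member called lower, at 1.82, 1.57 and 1.99 RPKM in MPP4 and 0.823, 1.09 and 0.912 RPKM in CLP. Its limma adjusted p of 0.0194 was 0.0704 without CLP number 1, 0.0536 without CLP number 3, 0.0644 without MPP4 number 1 and 0.0788 without MPP4 number 3. Sox4, needed for early B-cell survival, was abundant in both populations, at 120.1 ± 6.60 RPKM in MPP4 and 128 ± 27.2 RPKM in CLP, and was not called (limma adjusted p = 0.841). Pax5, which fixes B-cell commitment, was not analysed here.

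Among the genes of mature B cells and plasma cells, some rose too. Of 8 tested, 5 rose and 0 fell, and their summed level was 320.0 to 386 RPKM in CLP and 169 to 241 RPKM in MPP4. Mzb1, a chaperone of the endoplasmic reticulum in B cells and plasmacytoid dendritic cells, rose from 1.71, 4.08 and 5.84 RPKM to 31, 40.6 and 45.2 RPKM, and Sdc1, which encodes CD138, from 29.8, 22.8 and 42.3 RPKM to 52.9, 57.8 and 73 RPKM. The limma adjusted p of Sdc1 was 0.00799, with 0.0619 without MPP4 number 2. Pou2af1 and Irf4 belong to both lists. Cr2, the complement receptor of mature B cells, was at 0.167, 0.101 and 0.547 RPKM in CLP and 0.242, 0.533 and 0.359 RPKM in MPP4. The part of mature cells in the B-lineage rises was not tested.

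Recombination of the antigen receptor genes needs the Rag1 and Rag2 proteins to cut the DNA, terminal transferase (Dntt) to add bases, and end-joining proteins to seal it. Of 20 tested genes, 4 rose and 1 fell, with a median of 0.06, so the median of the list stayed near that of all genes. Rag1 (chr2:101638252-101649532) stood at 22.2, 23.2 and 18.9 RPKM in CLP and 0.600, 1.86 and 3.05 RPKM in MPP4, a difference of 3.08 ± 0.35 (limma adjusted p = 3.56e-06). Rag2 was at 49.5, 60.4 and 53.5 RPKM in CLP and already at 11.7, 17.4 and 22.6 RPKM in MPP4, a difference of 1.65 ± 0.22 (limma adjusted p = 2.53e-05). Rag1 and Rag2 were lowest in MPP4 number 1 and highest in MPP4 number 3, and neither overlapped between populations. In HSC they were at 0.187 ± 0.116 and 0.359 ± 0.357 RPKM (mean ± SD, n = 3).

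Dntt was abundant in both populations, at 1725, 1629 and 1618 RPKM in CLP and 847, 765 and 1055 RPKM in MPP4, a difference of 0.91 ± 0.20 (limma adjusted p = 0.00392). Its mean in HSC was 4.19 ± 1.06 RPKM. Of the Ku pair that binds broken DNA ends, Xrcc6 (Ku70) rose from 81.9, 74.3 and 90.5 RPKM to 149.8, 155 and 165 RPKM, with a difference of 0.92 ± 0.10 (limma adjusted p = 1.68e-06). Xrcc5 (Ku80) was lower in CLP, at 17.6, 15.6 and 14.8 RPKM against 25.7, 21 and 19.7 RPKM, with a limma adjusted p of 0.0175 that was 0.058 without CLP number 2, 0.0746 without CLP number 3 and 0.122 without MPP4 number 1.

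Promoters are shown for 4 genes of the surrogate light chain, the receptor and the recombinase, since these rose together and each holds the motif described next. Each line is the 250 bases before the annotated gene start in RefSeq GRCm38.p6, 5′ to 3′ on the gene's strand, and capitals mark CAGGTG or its reverse complement CACCTG, the core bound by E proteins such as E2A. Cd79a lies on the plus strand (chr7:24897247-24897496), and Igll1 (chr16:16863986-16864235), Vpreb1 (chr16:16869256-16869505) and Rag1 (chr2:101649533-101649782) on the minus strand.
Cd79a: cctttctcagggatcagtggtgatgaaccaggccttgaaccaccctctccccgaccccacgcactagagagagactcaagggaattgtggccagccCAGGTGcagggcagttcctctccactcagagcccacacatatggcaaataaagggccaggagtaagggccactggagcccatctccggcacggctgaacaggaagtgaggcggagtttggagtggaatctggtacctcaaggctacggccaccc
Igll1: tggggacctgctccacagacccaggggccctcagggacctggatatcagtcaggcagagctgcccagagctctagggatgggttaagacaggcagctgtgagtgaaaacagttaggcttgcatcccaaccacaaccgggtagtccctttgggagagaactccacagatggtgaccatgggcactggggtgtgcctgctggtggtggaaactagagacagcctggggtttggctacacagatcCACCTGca
Vpreb1: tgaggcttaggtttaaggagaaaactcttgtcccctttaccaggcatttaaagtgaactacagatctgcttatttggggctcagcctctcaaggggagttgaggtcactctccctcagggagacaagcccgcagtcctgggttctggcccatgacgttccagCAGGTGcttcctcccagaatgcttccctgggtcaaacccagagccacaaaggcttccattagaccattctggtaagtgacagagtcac
Rag1: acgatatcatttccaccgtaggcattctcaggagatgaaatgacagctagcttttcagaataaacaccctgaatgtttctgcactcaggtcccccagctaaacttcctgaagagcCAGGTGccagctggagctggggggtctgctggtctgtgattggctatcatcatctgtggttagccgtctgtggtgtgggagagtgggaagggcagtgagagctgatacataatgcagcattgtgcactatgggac
The motif began 154 bases before the start in Cd79a, 8 in Igll1, 88 in Vpreb1 and 135 in Rag1. Windows of 300 bases, which run on for 50 bases past the start, were searched as well. In these Blnk and Vpreb2 held 1 match each, while Vpreb3, Il7r and Ebf1, which were higher in CLP too, held 0. The 300-base windows of Vpreb1 and Vpreb2 shared a stretch of 156 bases in their best ungapped alignment, with 153 identical.

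Over such windows, from 250 before to 50 after the start and on both strands, CAGGTG was found in 9 of the 17 promoters on hand for the 20 called genes of the pre-B-cell receptor list (52.9%). It was found in 29.6% of 429 promoters of all genes called higher, in 22.6% of 758 promoters of genes called lower, in 16.7% of 18 promoters of stem cell genes that fell, in 19.7% of 8828 promoters of the tested genes and in 22.6% of the 27025 in the RefSeq table. The Ebf core CCCNNGGG was in 23.5% of the 17 promoters, in 27% of those of the genes called higher, in 27.2% of those called lower, in 38.9% of those of the stem cell genes that fell and in 20.7% of those of the tested genes. The GATA core AGATAA was in 23.5% of the 17 promoters, in 10.7% of those of the genes called higher, in 7.78% of those called lower, in 5.56% of those of the stem cell genes that fell, and in 7.66% of those of the tested genes. A match is only these letters in this window and shows no binding.

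The transcription factors that prime lymphoid genes already in multipotent cells changed less than the B-lineage factors. Of 28 tested, 6 rose and 4 fell, with a median of 0.17. Irf8, a factor of B cells, dendritic cells and monocytes, rose from 50.1, 45.9 and 50.3 RPKM to 135, 188 and 210.3 RPKM, a difference of 1.82 ± 0.16 (limma adjusted p = 1.11e-07). Myb, required in CLP cells for the next B-cell stages, rose from 111, 111 and 129 RPKM to 188, 175 and 180.4 RPKM. Ikzf1 (Ikaros), a zinc finger factor needed for all lymphocytes, rose from 40.4, 35.8 and 36.9 RPKM to 53.5, 52.9 and 52.3 RPKM. For each of these the groups were apart by more than the spread within either. Spi1 (PU.1), whose high level favours myeloid cells, fell from 144, 114 and 130.2 RPKM to 89.6, 84.3 and 85.1 RPKM, a difference of -0.58 ± 0.09 (limma adjusted p = 0.000196). Ikzf2 (Helios) fell from 4.24, 4.01 and 3.21 RPKM to 0.742, 0.668 and 1.74 RPKM. Runx1, Erg and Fli1, factors shared by stem cells and lymphoid progenitors, had differences of 0.12, -0.01 and -0.02 and were not called. The number of factors lower was 2 without CLP number 3 and 2 without MPP4 number 2.

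Etv6, the gene mutated in the other mice of the series, was at 66.3, 79.6 and 65.1 RPKM in wild-type CLP and 88.4, 95.6 and 84.3 RPKM in wild-type MPP4. The groups did not overlap, and the difference of -0.35 ± 0.09 had a limma adjusted p of 0.00967. That p was 0.0543 without CLP number 3 and 0.0595 without MPP4 number 2, and 0.0574 when the MPP4 and CLP libraries were fitted alone.

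Genes of T cells, natural killer cells and innate lymphoid cells rose as well. Of 22 tested, 13 rose and 2 fell, with a median of 0.73. With a filter at a mean of 5 RPKM fewer members were tested and 6 rose. Cd247, the zeta chain of the T-cell receptor complex, rose from 0.727, 1.03 and 1.72 RPKM to 9.35, 9.36 and 7.74 RPKM, a difference of 2.21 ± 0.23 (limma adjusted p = 1.13e-06). Cd6, a scavenger receptor family coreceptor of lymphocytes, rose from 8.24, 8.19 and 12.7 RPKM to 34, 32.7 and 37.3 RPKM, with no overlap. Cd28, a costimulatory receptor of T cells, rose from 0.649, 0.846 and 0.942 RPKM to 6.84, 4.02 and 4.90 RPKM. Lck, the kinase of the T-cell coreceptors, was clearly present in MPP4 at 36.1, 40.04 and 42.9 RPKM and rose to 79.3, 83 and 72.1 RPKM in CLP. Cd5 and Cd7, surface proteins of early lymphocytes, rose with differences of 1.34 ± 0.26 and 1.43 ± 0.29. Ltb, the lymphotoxin beta chain, fell from 18.9, 15.3 and 19 RPKM to 5.26, 8.77 and 7.98 RPKM. The number of genes lower was 1 without CLP number 1, MPP4 number 2 or MPP4 number 3.

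The factors that mark T-cell commitment were low. Tcf7 was at 1.41, 2.44 and 2.19 RPKM in CLP and 0.303, 0.146 and 0.292 RPKM in MPP4, with a limma adjusted p of 0.019 that was 0.0773 without CLP number 2, 0.0585 without CLP number 3, 0.0504 without MPP4 number 1 and 0.0669 without MPP4 number 2. Gata3 was at 1.19, 1.16 and 1.61 RPKM in CLP and 2.04, 1.55 and 1.27 RPKM in MPP4, and these overlapped. Cd3e was not analysed here. Nkg7, a granule protein of cytotoxic cells, was high in all 6 libraries, at 143, 112 and 107 RPKM in CLP and 144, 110.1 and 97.4 RPKM in MPP4, and did not differ beyond its spread (limma adjusted p = 0.972). Itga4 and Il18r1, which other lists hold too, are among the 13 rises. The limma adjusted p of Il18r1 was 0.00922, with 0.0632 without CLP number 3 and 0.0592 without MPP4 number 1, and 0.0711 with the 6 wild-type MPP4 and CLP libraries fitted alone.

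Notch signalling directs lymphoid progenitors to the T-cell fate. Of 22 tested pathway genes, 4 rose and 2 fell, with a median of −0.07, and the number of rises was 2 without CLP number 2. Notch1 itself rose from 42.3, 51.9 and 55.6 RPKM to 73.2, 89.9 and 73 RPKM (limma adjusted p = 0.0112), with 0.0677 without CLP number 2 and 0.0756 without MPP4 number 1. Dtx4, a ubiquitin ligase of the pathway, rose from 13.3, 16.1 and 13.5 RPKM to 28, 27.1 and 21.1 RPKM, and Maml3, a coactivator, from 21.7, 16.1 and 26 RPKM to 34.5, 31.5 and 31.8 RPKM. The limma adjusted p of Maml3 was 0.0121, with 0.0982 without MPP4 number 2. Mfng, which modifies Notch receptors with sugars, fell from 105, 95.7 and 99.5 RPKM to 73.4, 71 and 64.3 RPKM, and Adam10, the protease that cleaves them, from 57.4, 59.1 and 60.2 RPKM to 45.4, 40.6 and 43.9 RPKM. The target gene Hes5 was low, at 6.08, 10.3 and 5.46 RPKM in CLP and 3.45, 3.96 and 3.99 RPKM in MPP4, and its limma adjusted p of 0.00934 was 0.0766 without CLP number 2.

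Genes of plasmacytoid dendritic cells rose too. Of 22 tested dendritic cell genes, 10 rose and 1 (Cd300a) fell (2 fell with the replicate block or without CLP number 3), with a median of 0.60, and their summed level went from 476 to 562 RPKM in MPP4 to 897 to 1283 RPKM in CLP. Siglech, a lectin receptor that defines these cells in the mouse, was at 52.3, 82.1 and 129 RPKM in CLP and 1.94, 2.62 and 4.12 RPKM in MPP4, a difference of 4.46 ± 0.34 (limma adjusted p = 1.88e-08). Cox6a2, a cytochrome oxidase subunit found in muscle and in plasmacytoid dendritic cells, was at 221, 302 and 297 RPKM in CLP and 25.5, 32.4 and 43.5 RPKM in MPP4, a difference of 3.00 ± 0.23 (limma adjusted p = 2.51e-08). For both genes the populations were far apart. Siglech was highest in CLP number 3, while Cox6a2 was highest in number 2 and nearly as high in number 3.

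Other members of the dendritic cell list moved less. Unc93b1, which escorts nucleic acid-sensing Toll-like receptors, rose from 104, 94 and 111 RPKM to 145, 198 and 178 RPKM. Itgax, which encodes CD11c, rose from 5.47, 3.55 and 4.41 RPKM to 7.03, 7.52 and 14 RPKM and was highest in number 3. Bst2, an antiviral membrane protein abundant on plasmacytoid dendritic cells, was at 116, 127 and 159 RPKM in CLP and 93.6, 98.7 and 117 RPKM in MPP4. It was not called (limma adjusted p = 0.0533), but was called at 0.00571 with the number as a replicate block. Of 15 tested genes of MHC class II presentation, 1 rose (2 with the replicate block or without MPP4 number 3) and 0 fell (1 without CLP number 2). It was H2-Ob, a chain of the DO protein that tunes peptide loading in B cells, which went from 58.9, 52.8 and 75.7 RPKM to 116, 100.5 and 119 RPKM. Spib and Irf8 belong to the dendritic cell list as well, so their rises count there and in other lists.

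Homing and adhesion receptors, which place progenitors in the marrow and lead them to the thymus, split. Of 31 tested, 6 rose and 4 fell, with a median of −0.02, and 8 fell with the replicate block. Ccr7, a chemokine receptor used for thymus entry, rose from 9.28, 11.9 and 16 RPKM to 25.7, 33.9 and 34.7 RPKM, a difference of 1.29 ± 0.26 (limma adjusted p = 0.00182), but was at 0.208 with a pseudocount of 0.1. Itga4, the alpha chain of the integrin VLA-4, rose from 17.6, 21.9 and 23.3 RPKM to 44.5, 35.6 and 42.4 RPKM. Selplg, the ligand of P-selectin, rose from 112, 105 and 117 RPKM to 163, 192 and 169.9 RPKM, and Cx3cr1, the fractalkine receptor, from 3.61, 3.94 and 5.67 RPKM to 11, 10.1 and 14.9 RPKM. For each of these the groups were apart. Robo4, a guidance receptor of stem cells and endothelium, fell from 10.02, 6.86 and 8.97 RPKM to 1.42, 2.58 and 2.07 RPKM, and Itgb1, the beta chain shared by many integrins, from 72.5, 63.9 and 60.6 RPKM to 45.9, 43.3 and 47.2 RPKM.

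The stem cell programme fell as a group. Of 43 tested stem cell and multipotency genes, 28 fell and 0 rose, against 8.72% and 5.08% of all genes, and the median difference was −0.85. Their summed level was 2250.5 to 2450.4 RPKM in MPP4 and 949 to 965 RPKM in CLP. With a filter at a mean of 5 RPKM fewer members were tested and 16 fell. Hlf (chr11:90336535-90390917), a leucine zipper factor that maintains stem cells, was at 1.88, 1.44 and 1.54 RPKM in CLP and 24, 18.4 and 17.2 RPKM in MPP4, a difference of -2.98 ± 0.20 (limma adjusted p = 5.03e-09). Gata2, a zinc finger factor of stem and mast cells, was at 0.663, 1.91 and 1.81 RPKM in CLP and 18, 15 and 9.86 RPKM in MPP4. Both fell to under 2 RPKM in every CLP library.

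The HSC levels of these genes stand beside those of the step. Gata2 was at 158 ± 5.01 RPKM (mean ± SD, n = 3) in HSC, 14.3 ± 4.12 RPKM in MPP4 and 1.46 ± 0.694 RPKM in CLP. Hlf went from 56.7 ± 11.4 to 19.9 ± 3.60 to 1.62 ± 0.230 RPKM. Lmo2, a bridging protein of stem cell and erythroid factor complexes, was at 375 ± 43 RPKM in HSC and 264 ± 23.7 RPKM in MPP4, and at 62.1 ± 2.80 RPKM in CLP. Its difference between MPP4 and CLP was -2.07 ± 0.12 (limma adjusted p = 4.79e-10). Angpt1, an angiopoietin made by stem cells, was at 151 ± 11.6, 36.6 ± 7.88 and 9.63 ± 1.80 RPKM. Procr, the protein C receptor of stem cells, was at 3.32, 4.96 and 2.78 RPKM in MPP4 and 0, 0 and 0.129 RPKM in CLP, where it is listed at 0 in numbers 1 and 2.

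Other genes of the stem cell list also fell. Mecom, a zinc finger factor, stood at 0.923, 0.112 and 0.701 RPKM in CLP and 5.40, 3.07 and 3.19 RPKM in MPP4, and Nkx2-3, a homeobox factor, at 1.39, 0 and 0.667 RPKM and 14.9, 7.08 and 8.09 RPKM. The interferon-induced membrane protein Ifitm1 fell from 137, 152 and 200.05 RPKM to 15.9, 17 and 33.5 RPKM, and Ifitm3 from 389.6, 300.1 and 416 RPKM to 120.0, 88.2 and 118 RPKM. Slamf1, which encodes the stem cell marker CD150, was at 0.487, 0.201 and 1.47 RPKM in CLP and 0.335, 1.40 and 0.810 RPKM in MPP4. Among those not called were Bmi1, a Polycomb protein of self-renewal, with a difference of -0.24 ± 0.11, and Msi2, an RNA-binding protein, with 0.02 ± 0.14.

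The Hox genes of the A cluster did not move together. Of 11 tested Hox, Meis and Pbx genes, 4 fell and 0 rose, and 2 fell without MPP4 number 1. Meis1, the cofactor of HoxA proteins, fell from 39.9, 38.1 and 39.9 RPKM to 20.9, 23.3 and 19.8 RPKM, a difference of -0.85 ± 0.11 (limma adjusted p = 1.06e-05). Hoxa10 fell from 8.10, 5.28 and 6.29 RPKM to 3.03, 1.11 and 1.40 RPKM. Hoxa9, which supports lymphoid progenitors, was lower at 11.7, 11.6 and 10.5 RPKM against 19.1, 15.8 and 17.2 RPKM (limma adjusted p = 0.00922), with 0.0553 without MPP4 number 1. Hoxa7 was at 9.84, 16.1 and 13.6 RPKM in CLP and 12.2, 13.5 and 14.8 RPKM in MPP4, and Hoxa5 at 3.13, 3.19 and 4.88 RPKM and 3.65, 2.64 and 3.80 RPKM. Both overlapped and were not called, with differences of -0.05 ± 0.15 and 0.11 ± 0.20.

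**Figure D3:**
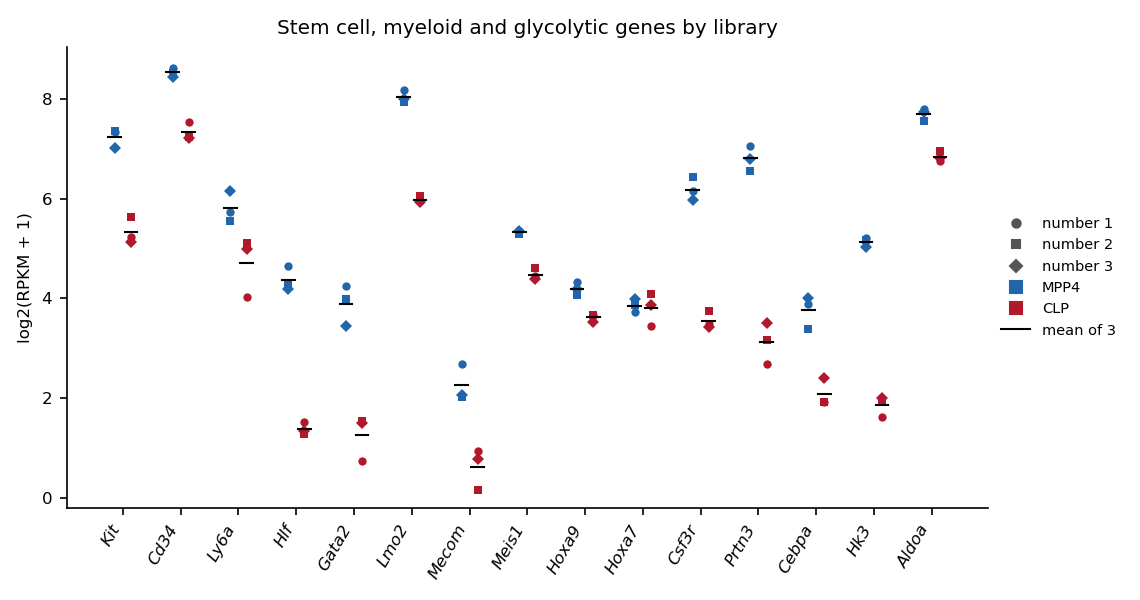
Level of stem cell, Hox, myeloid and glycolytic genes in each wild-type library on the log2(RPKM + 1) scale, drawn with blue for MPP4, red for CLP, marker shapes for the number and a line at each mean of 3. Hlf, Gata2, Csf3r, Prtn3 and Hk3 drop the most among those drawn, while the Hoxa7 groups overlap.

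Some myeloid genes fell and others rose. Of 29 tested genes of granulocyte-monocyte progenitors, 6 fell and 4 rose, with a median of −0.26, and 10 fell with the replicate block and 11 with the 6 wild-type MPP4 and CLP libraries fitted alone. Prtn3, proteinase 3 of the primary granules, was at 5.40, 7.99 and 10.3 RPKM in CLP and 133, 93.4 and 110.5 RPKM in MPP4, a difference of -3.69 ± 0.27 (limma adjusted p = 1.54e-08). Csf3r, the receptor for granulocyte colony-stimulating factor, was at 10.3, 12.4 and 9.77 RPKM in CLP and 69.9, 85.3 and 61.5 RPKM in MPP4, a difference of -2.63 ± 0.25 (limma adjusted p = 4.01e-07). Cebpa, the factor that commits progenitors to the granulocyte and monocyte lines, fell from 13.8, 9.39 and 15 RPKM to 2.76, 2.80 and 4.27 RPKM. In each the groups were far apart. Ctsg, cathepsin G, fell from 68, 88 and 46.2 RPKM to 8.78, 13.3 and 9.76 RPKM (limma adjusted p = 0.0014), but was at 0.0533 with a pseudocount of 0.1.

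Mpo, myeloperoxidase, stayed abundant at 197, 278 and 233 RPKM in CLP against 463, 544 and 396 RPKM in MPP4. The groups did not overlap, but the difference of -0.98 ± 0.82 was not called (limma adjusted p = 0.515). The fit shares its estimate of spread over all 21 libraries, HSC and mutant included. With the MPP4 and CLP libraries fitted alone its adjusted p was 0.00303. Lyz2, lysozyme, was at 132, 124 and 138 RPKM in CLP and 259, 236 and 237 RPKM in MPP4, with a limma adjusted p of 0.103. With the replicate block that p was 0.0335, and 0.000269 with the MPP4 and CLP libraries alone. The rises of this list included genes that other lineages also express. Ly86, the MD-1 partner of a Toll-like receptor relative in B cells and myeloid cells, rose from 13.2, 23.4 and 37.2 RPKM to 125, 143 and 179 RPKM, a difference of 2.65 ± 0.29 (limma adjusted p = 2.04e-06). Clec12a, an inhibitory lectin, rose from 66.7, 61.2 and 61.1 RPKM to 137, 117 and 126 RPKM, and Fcer1g, the common Fc receptor chain, from 61.8, 54.1 and 48 RPKM to 88.6, 117 and 127 RPKM.

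Of 27 tested cytokine receptors of myeloid and stem cells, 10 fell and 3 rose, with 6 lower without MPP4 number 3. Besides Csf3r, Il1r1, the receptor for interleukin 1, fell from 38.8, 31.3 and 37.4 RPKM to 12.8, 12.2 and 12.5 RPKM, a difference of -1.44 ± 0.16 (limma adjusted p = 3.06e-06). The receptors for interleukin 6 moved in opposite directions. The binding chain Il6ra fell from 15.1, 21.6 and 23.9 RPKM to 6.30, 11.5 and 12 RPKM, while the signalling chain Il6st (gp130) rose from 16.4, 17.8 and 22.9 RPKM to 40.9, 46.1 and 49.4 RPKM, with differences of -0.98 ± 0.23 and 1.22 ± 0.15. Csf1r, the receptor for macrophage colony-stimulating factor, was at 19.7, 21.5 and 32.8 RPKM in CLP and 32, 23.8 and 39.9 RPKM in MPP4, and these overlapped.

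Markers of mature myeloid, megakaryocyte and red cells differed between libraries as well as between populations. Of 15 tested macrophage genes, 5 fell and 1 (Cd163) rose, with a median of −1.31, and 8 fell with the replicate block (12 where mutant CLP number 4 is taken as unpaired) and 9 with sex and age as terms. Their sum was 41.4, 61.3 and 105 RPKM in CLP against 141 to 152 RPKM in MPP4. The number lower fell to 1 without CLP number 1, MPP4 number 1 or MPP4 number 3, to 0 without CLP number 2 and to 3 without MPP4 number 2, and was 9 without CLP number 3. The 1 rise was called in the fit without MPP4 number 3 and was lost without any other of the 6 libraries. C1qa, a complement subunit made by macrophages, was at 0.165, 0 and 3.01 RPKM in CLP, with number 2 listed at 0, and at 7.88, 4.58 and 7.89 RPKM in MPP4. Its limma adjusted p was 0.0139, with 0.0633 without CLP number 1, 0.0831 without CLP number 2, 0.0574 without MPP4 number 1 and 0.0501 without MPP4 number 3. The part of macrophage RNA in the myeloid falls was not tested.

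Of 11 tested neutrophil granule genes, 2 (Padi4 and Anxa1) fell and 0 rose, with a median of 0.02. That median was −0.77 without CLP number 1, −0.90 without MPP4 number 3 and 0.99 without MPP4 number 1. S100a8, a calcium-binding protein of mature neutrophils, was low in number 3 of both populations, at 142, 102 and 4.49 RPKM in CLP and 160.4, 83.2 and 3.86 RPKM in MPP4. Of 23 tested megakaryocyte and platelet genes, 9 fell and 3 rose, with a median of −0.48. The number lower was 5 without MPP4 number 1 and 3 with a filter at a mean of 5 RPKM, and the number higher was 1 without CLP number 1 and 1 without MPP4 number 2. Pf4, platelet factor 4, was at 150.2, 1.99 and 1.10 RPKM in MPP4 and 1.06, 2.61 and 1.20 RPKM in CLP, so that it was high in MPP4 number 1 alone. The summed level of the list was 676, 391 and 406 RPKM in MPP4 and 351 to 417 RPKM in CLP. Of 35 tested erythroid genes, 4 fell and 1 rose (2 with the replicate block, without CLP number 2 or without MPP4 number 1). Car2, a carbonic anhydrase also high in stem cells, fell from 246, 185 and 140.1 RPKM to 27.6, 39.9 and 43 RPKM, and Nfe2, a leucine zipper factor of both lines, from 93.1, 76.3 and 66.3 RPKM to 24.8, 19.5 and 23 RPKM. Tfrc, the transferrin receptor of dividing cells, rose from 13.1, 13.2 and 11.9 RPKM to 38.6, 41.4 and 43.7 RPKM. Without MPP4 number 1, Hlf, Gata2 and Nfe2 were still called lower.

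Outside these lists, the largest changes included genes of varied roles. Tmem119, a membrane protein best known as a microglial marker, rose from 4.72, 7.50 and 6.76 RPKM to 91.7, 77.1 and 81.8 RPKM. Colq, the collagen tail that anchors acetylcholinesterase, rose from 1.14, 2.73 and 2.78 RPKM to 20.6, 26.3 and 18.3 RPKM, and Gpr25, an orphan G protein-coupled receptor, from 1.51, 1.24 and 2.10 RPKM to 19.96, 20.7 and 13.3 RPKM. None of these overlapped between populations. On the other side, Wfdc17, a secreted antiprotease-like protein, fell from 307, 206 and 455 RPKM to 28.1, 16.3 and 51.6 RPKM. Ccl9, a chemokine of myeloid progenitors, fell from 38.9, 34 and 43.5 RPKM to 4.23, 1.16 and 4.39 RPKM, and Rab38, a small GTPase of lysosome-related organelles, from 47.5, 49.1 and 38.3 RPKM to 2.03, 3.0 and 2.74 RPKM. Mc5r, a melanocortin receptor, fell from 32.9, 27.5 and 26.2 RPKM to 1.91, 1.92 and 1.14 RPKM. Muc13, a membrane mucin, fell from 65.2, 45.6 and 44.1 RPKM to 4.28, 6.14 and 5.54 RPKM, Serpina3g, a protease inhibitor of haematopoietic progenitors, from 44.6, 58.5 and 48.5 RPKM to 2.84, 5.68 and 8.09 RPKM, and F2rl3, a thrombin receptor, from 23.5, 25.7 and 22.9 RPKM to 3.78, 2.13 and 2.15 RPKM. For every gene of this paragraph the limma adjusted p was under 0.05 in each of the 6 fits that left out 1 wild-type MPP4 or CLP library.

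The genes of glycolysis, which turns glucose into pyruvate and lactate, were lower in CLP as a group. Of 23 tested, 14 fell and 0 rose, and all 23 differences were negative, with a median of −0.36. The summed level was 2609 to 2754 RPKM in MPP4 and 2045 to 2235 RPKM in CLP. The number called was 9 without CLP number 3 or MPP4 number 1 and 8 without MPP4 number 2. Hk3, the myeloid hexokinase isoform, had the largest fall, from 35.8, 34.8 and 31.6 RPKM to 2.09, 2.87 and 2.97 RPKM, a difference of -3.27 ± 0.31 (limma adjusted p = 2.62e-07). Aldoa, the main aldolase, fell from 223, 187 and 212 RPKM to 107, 123 and 112 RPKM, a difference of -0.86 ± 0.11 (limma adjusted p = 1.59e-05). Pkm, pyruvate kinase, fell from 275 ± 7.47 RPKM to 199.78 ± 10.1 RPKM and Pgk1, phosphoglycerate kinase, from 122 ± 1.68 RPKM to 92.8 ± 7.26 RPKM, with differences of -0.46 ± 0.08 and -0.40 ± 0.09. The glucose transporter Slc2a3 fell from 14, 14.1 and 11.4 RPKM to 8.51, 8.24 and 7.87 RPKM. Gapdh was at 527, 578 and 509.8 RPKM in CLP and 585, 560.4 and 604 RPKM in MPP4, which overlapped, and was not called (limma adjusted p = 0.376).

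Several regulators of entry into the cell cycle rose. Of 28 tested cyclins, kinases and inhibitors of the G1 phase, 6 rose and 1 fell. The 1 fall was called without MPP4 number 1, was lost without CLP number 1 or 3 or MPP4 number 2 or 3, and became 2 without CLP number 2 and with the replicate block. Ccnd3, the D-type cyclin that pre-B cells depend on, rose from 40.7, 35.1 and 35.2 RPKM to 95.3, 95 and 83.6 RPKM, a difference of 1.28 ± 0.10 (limma adjusted p = 3.95e-08). Ccnd2 rose from 60.2, 58.7 and 63.6 RPKM to 83.2, 99.5 and 79.3 RPKM. Cdkn1a, the p21 inhibitor of cyclin-dependent kinases, also rose, from 12.3, 12.5 and 11.6 RPKM to 57.5, 38.2 and 32.8 RPKM, as did the antiproliferative gene Btg1, from 7.04, 6.03 and 7.51 RPKM to 12.4, 18.3 and 18.8 RPKM. Mycl, a Myc family member of dendritic cells, rose from 4.0, 1.81 and 2.66 RPKM to 14.9, 23.6 and 28.2 RPKM, a difference of 2.60 ± 0.25 (limma adjusted p = 3.73e-07). Of 62 tested genes of DNA replication and mitosis, 0 were called with limma and 1 had an unadjusted p under 0.05, and their median was 0.04. With the replicate block 1 rose, and with the 6 wild-type MPP4 and CLP libraries fitted alone 3 rose. Of 17 genes that write or erase DNA methylation, 0 were called with limma and 1 had an unadjusted p under 0.05.

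The genes of protein synthesis and respiration were mostly a little lower, with few calls. Of 82 cytoplasmic ribosomal protein genes, 79 were lower in CLP, against 57.7% of all genes. Their median was −0.21, or −0.09 without CLP number 2, where that of all genes was −0.03. Of these 82 genes, 1 rose and 1 fell, or 4 fell with the replicate block. Their summed level ran from 24059.6 to 31129.7 RPKM in CLP and from 29149.8 to 35315 RPKM in MPP4, which overlapped. Rpl3l, a muscle-type paralogue, was the 1 that rose, from 0.809, 1.13 and 1.35 RPKM to 4.29, 3.06 and 5.91 RPKM. Rpl7l1, a paralogue that acts in ribosome assembly, was the 1 that fell, with a limma adjusted p of 0.0383 that was 0.0854 without CLP number 1, 0.124 without CLP number 2, 0.0534 without CLP number 3, 0.0677 without MPP4 number 1, 0.101 without MPP4 number 2 and 0.112 without MPP4 number 3. Of 75 genes of the respiratory chain and ATP synthase, 65 were lower, with a median of −0.11. Without CLP number 2 that median was −0.02, near the −0.03 of all genes. In this list 1 rose and 1 fell, or 4 fell with the replicate block. The fall of Ndufa4, a subunit of cytochrome oxidase, had a limma adjusted p of 0.00707 that was 0.0555 without CLP number 2, and the rise of Sdhb, a subunit of complex II, one of 0.0319 that was 0.0811 without CLP number 1, 0.0898 without CLP number 2, 0.0531 without CLP number 3, 0.127 without MPP4 number 1, 0.0612 without MPP4 number 2 and 0.0619 without MPP4 number 3. Of 11 tested genes of the Bcl2 family, which decides cell survival, 1 fell and 1 (Bid) rose, and the rise was lost without any 1 of the 6 libraries except MPP4 number 1. Bbc3 (Puma), a killer member, fell from 5.10, 3.24 and 5.53 RPKM to 1.98, 1.48 and 2.27 RPKM, a difference of -0.93 ± 0.21 (limma adjusted p = 0.00433). The survival gene Bcl2 was at 35, 34.6 and 29.8 RPKM in CLP and 25.7, 29.5 and 23.6 RPKM in MPP4, without overlap, with a limma adjusted p of 0.171, or 0.0193 with the replicate block.

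Interferon-stimulated genes fell more often than they rose, as did all genes (8.72% lower and 5.08% higher). Of 55 tested, 13 fell and 4 rose, with a median of −0.21, and 7 rose with the replicate block or with median-ratio scaling. With the block and mutant CLP number 4 unpaired 21 fell. The number lower was 8 without CLP number 2 and 7 without MPP4 number 1, and the number higher was 2 without CLP number 3 or MPP4 number 2. Gbp2, a guanylate-binding protein, fell from 17.4, 14.3 and 16 RPKM to 3.95, 3.23 and 6.28 RPKM, a difference of -1.66 ± 0.24 (limma adjusted p = 4.82e-05). Oasl2, of the oligoadenylate synthase family, fell from 43.1, 23.8 and 38.8 RPKM to 12.2, 9.06 and 14.6 RPKM, and Samd9l, an antiviral growth regulator, from 13.2, 5.92 and 9.54 RPKM to 3.85, 2.96 and 3.55 RPKM. In these the groups were apart. Gbp9, from the same family as Gbp2, moved the other way, from 11.4, 1.74 and 8.42 RPKM in MPP4 to 39, 13.7 and 34.1 RPKM in CLP (limma adjusted p = 0.00499). Gbp9 was lowest in number 2, the male mouse, in both populations. Ly6e, which lies in the same gene family as Ly6d and Ly6a, rose from 302, 285 and 321 RPKM to 423, 615 and 481 RPKM. Of 24 tested immediate early and heat shock genes, which respond to handling of cells, 2 (Jun and Zfp36l1) rose and 2 (Ier2 and Ier3) fell. No rise was called without CLP number 2, CLP number 3 or MPP4 number 1, and Jun alone was called without MPP4 number 2. Zfp36l1 was lost without MPP4 number 3 as well, at a limma adjusted p of 0.164. The number lower was 1 in every one of the 6 fits that left out a library except that without CLP number 2. Ier2 was the call lost each time, with limma adjusted p from 0.0677 to 0.147.

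**Figure D4:**
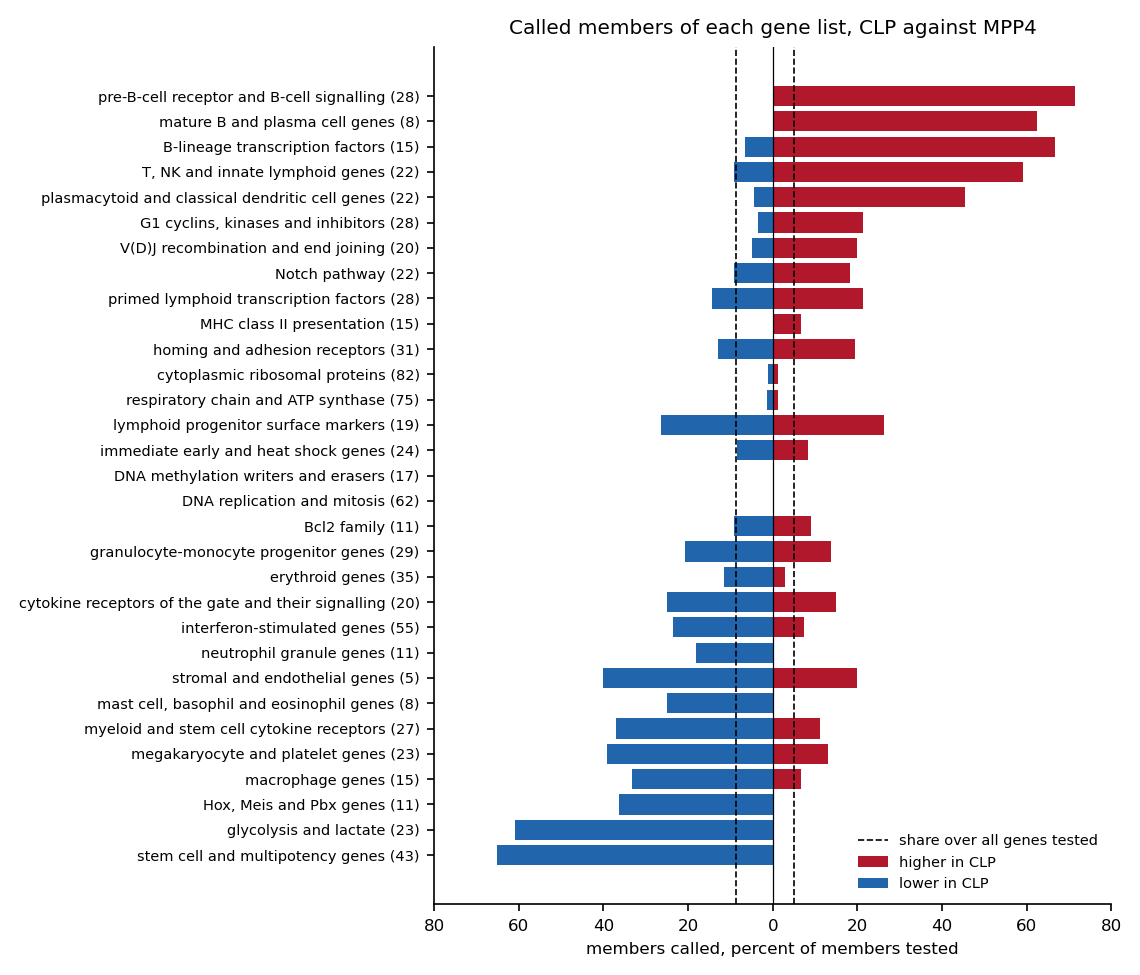
Bars give, for each of the gene lists, the percent of tested members called in wild-type CLP against MPP4. Members called higher are in red to the right and those called lower in blue to the left. Dashed lines mark the shares over all genes tested. The stem cell list has 28 lower and 0 higher, the pre-B-cell receptor list 20 higher and 0 lower, and DNA replication and mitosis 0 of 62 in either direction.

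The same step was measured in mice homozygous for the Etv6 mutation, with 4 libraries for each population and no library in common with the wild-type step. Both steps came from the same fit with a shared estimate of spread, so their calls are not independent. There, 2659 of 10895 genes (24.4%) were called, 900 higher and 1759 lower. Of the 554 genes higher in the wild type, 550 were positive in the mutant and 478 were called. Of the 950 genes lower, 947 were negative in the mutant and 844 were called. The Pearson correlation of both steps over 10895 genes was 0.885, as a description, since genes are not independent. No difference between the mutant and the wild-type step was called for any gene (0 of 10895, or 0%, limma), with 421 genes at an unadjusted p under 0.05. The mutant step rests on 4 libraries a group against 3, and 2228 to 2644 genes were called in it when 1 mutant library was left out.

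The smallest adjusted p of such a difference was 0.0803, shared by Slc25a30, Gng11, Cox6a2 and Cnn3 among others. Cox6a2 stood at 33.8 ± 9.08 RPKM in wild-type and 10.2 ± 4.02 RPKM in mutant MPP4 (mean ± SD, n = 3 and 4) and at 273 ± 45 and 273 ± 36.8 RPKM in CLP, with a difference between steps of 1.67 ± 0.31. When 1 library was left out, the difference was called for Slc25a30 without wild-type MPP4 number 1, at an adjusted p of 0.0297. It was called for Cox6a2 without mutant MPP4 number 2 (0.00902), for Slc25a30 without mutant CLP number 4 (0.042), and for S1pr1, the sphingosine phosphate receptor of lymphocyte exit, without mutant CLP number 2 (0.0288).

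The lists were counted in the mutant step too. Of the pre-B-cell receptor list 17 rose and 0 fell, of the B-lineage factors 9 rose and 1 fell, of the dendritic cell genes 12 rose and 2 fell, and of the stem cell genes 32 fell and 0 rose. Of the glycolysis genes 15 fell and 0 rose. In several other lists, but not all, more members were called in the mutant, as over all genes (24.4% against 13.8%). The list of T, natural killer and innate lymphoid cells had 12 higher and 2 lower in the mutant, against 13 and 2 in the wild type. Over all genes, 1759 were lower in the mutant and 950 in the wild type, and 900 and 554 were higher. Lower members numbered 11 in the mutant and 4 in the wild type for the erythroid list, 10 and 5 for the receptors of the gate and their signalling, 6 and 2 for the Notch pathway, 21 and 13 for the interferon-stimulated genes and 9 and 5 for the macrophage genes. Higher members numbered 11 and 6 for the homing receptors, and 11 and 0 for DNA replication and mitosis. No member of any list was called in the test of the difference. Ly6d was at 11.4 ± 7.01 RPKM in mutant MPP4 and 738 ± 286 RPKM in mutant CLP, a step of 5.96 ± 0.47 beside 5.53 ± 0.54 in the wild type. Rag1 was at 0.811 ± 0.678 and 13.1 ± 7.54 RPKM, a step of 2.90 ± 0.31 beside 3.08 ± 0.35. Cd79a was at 3.56 ± 1.92 and 41.8 ± 34.3 RPKM, and its mutant CLP libraries ran from 16.0 to 92.3 RPKM with a median of 29.5 RPKM, so that the spread between libraries was wide in both genotypes.

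**Figure D5:**
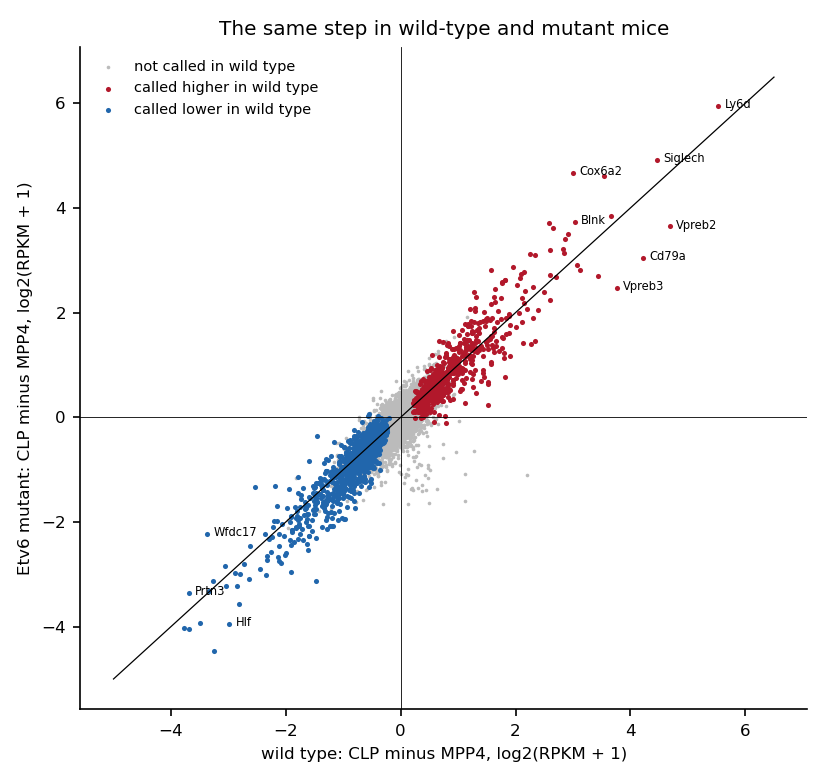
CLP minus MPP4 difference on the log2(RPKM + 1) scale in wild-type mice (x axis) and in Etv6 mutant mice (y axis) for 10895 genes, with red and blue for genes called higher and lower in the wild type and a line where both steps are equal. Most called genes lie near the line, Cox6a2 lies above it, and 0 genes were called for the difference.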

How the data were processed

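SMART-seq cDNA was made from the RNA of sorted bone marrow cells and tagmented with NexteraXT reagents, per the labels' protocols. The authors deposited the values as RPKM in 1 table of 11628 genes. Reads were aligned with STAR to mm10, per the submitters' processing notes. How reads were counted, with which annotation and strand setting, and how the genes of the table were chosen is not stated. No counts were recovered, so depth is unknown and no counting interval is given. RPKM divides by transcript length and mapped reads, so a few abundant genes can shift the others, and without strand overlapping genes cannot be told apart.

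Genes with at least 1 RPKM in 3 of the 6 wild-type MPP4 and CLP libraries were kept, 10895 in all, and 733 were removed. A total of 16 symbols that a spreadsheet had turned into dates were restored through Entrez identifiers, 11619 of which matched RefSeq. Means of 6 groups were fitted on log2(RPKM + 1) over all 21 libraries with limma 3.58.1 under R 4.3.3, using its variance trend, with 15 residual and 4.59 prior degrees of freedom. Tests were two-sided, with Benjamini-Hochberg adjustment over all genes kept, and the fit was tested on simulated data. Contrasts were CLP minus MPP4 in the wild type, the same in the mutant, and their difference. Same-numbered wild-type libraries were read as sharing a mouse. Their deviations from the group means correlated over genes at 0.263, 0.296 and 0.241 for numbers 1, 2 and 3, and at −0.2215 to −0.0096 for different numbers. Alternatives were pseudocounts of 0.1 and 0.5, 3 other filters, median-ratio and quantile scaling, library weights, sex and age terms, a replicate block (with mutant CLP number 4 also unpaired, added later), the MPP4 and CLP libraries alone (for the wild-type step, its 6 wild-type libraries only), and leaving out each library in turn.

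The genes named are the 15 largest rises and 15 largest falls among called genes with non-overlapping groups and a group mean of at least 10 RPKM, together with the defining and most changed members of 31 gene lists and of the lists of other cell types, and the smallest p of the difference. Not all largest changes of each list are printed, and some genes are not reported here. The comparison, its members and the lists were chosen with earlier results of these data known. The lists asked for 961 genes, of which 813 were in the table. Promoters come from RefSeq GRCm38.p6, where 8828 of the 10895 genes had an entry.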

Additional observations from a re-analysis of the deposited data

Results flagged for a closer look

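With 3 libraries a group, no wild-type group was tested for libraries that stand apart from the rest of their group. In the mutant groups of 4, 11 genes that the text prints were checked in both populations, which makes 22 groups, and 3 of these held a library far from its group by Dixon's test. Chance gives about 1 in 20 groups. Ly6d was at 21.8 RPKM in 1 mutant MPP4 library, where the lowest was 6.93 RPKM and the median 8.38 RPKM, so the gap to the nearest library was 0.865 of the range. Prtn3 was at 67.6 RPKM in 1 mutant MPP4 library, below a median of 113.6 RPKM, with a gap of 0.923 of the range. Hk3 was at 12.4 RPKM in 1 mutant CLP library, above a median of 3.67 RPKM, with a gap of 0.857 of the range. The wild-type levels and the wild-type step do not use these libraries except through the shared estimate of spread.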

How the results depend on the processing

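No call of a named gene reversed its direction under the alternatives. Medians of some lists changed sign when 1 library was left out, such as those of neutrophil granule genes and DNA replication genes. The wild-type step had 1504 genes called and 1443 to 1754 under no filter, a filter over all 21 libraries, both scalings, both pseudocounts, library weights and sex and age terms, 1282 with the MPP4 and CLP libraries alone and 1067 with the filter at a mean of 5 RPKM. With a replicate block it had 1983, of which 1493 were among the 1504, and the replicate block changed no other call of a named gene than those given in the text. Leaving out 1 library gave 1041 to 1326 called, 415 to 541 higher and 626 to 845 lower. The mutant step had 2659 called, 2228 to 2644 when 1 mutant library was left out, and 3274 with the replicate block. The labels give mutant CLP number 4 another age than mutant MPP4 number 4, so that number cannot be 1 mouse. With that library unpaired in the replicate block, a setting chosen after seeing the data, 2957 were called in the mutant and 1950 in the wild type, and of the named genes Zfp36l1 was lost (adjusted p = 0.0536). The difference of the steps had 0 called, and 0 to 2 when 1 library was left out. Median-ratio scaling gave 673 higher and 808 lower. Of 140 named genes called, 118 were called in each fit that left out 1 library; for the others the text gives the libraries. The table gives no depth, so what depth limits could not be measured, and changes of genes near 1 RPKM are the least certain. With 3 wild-type libraries a group, the p-values rest on a spread shared by all 21 libraries, HSC and mutant included. The main fit takes same-numbered libraries as independent, so it does not measure how the step varies between mice.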

Other observations

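Some gene families were read after their values had been seen, and Anxa1 and Anxa3 among them stand in lists above too, so their counts are a description and no test. The Gimap genes, small GTPases of lymphocytes that sit in 1 cluster, were all higher in CLP. Of 8 tested, 7 were called higher, against 5.08% of all genes, and their median difference was 0.93. Gimap7 stood at 79.6, 64.0 and 81.9 RPKM in CLP and 14.8, 22.2 and 25.0 RPKM in MPP4, and Gimap4 at 5.32, 15.6 and 10.5 RPKM in CLP and 0.821, 1.41 and 1.43 RPKM in MPP4. Neither overlapped between the populations.

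The annexins, calcium-dependent membrane-binding proteins, were all lower in CLP. Of 9 tested, 7 were called lower, against 8.72% of all genes, and their median difference was −0.90. Anxa5 stood at 12.2, 10.3 and 18.3 RPKM in CLP and 55.8, 40.8 and 34.9 RPKM in MPP4. Anxa2 stood at 5.79, 13.8 and 12.3 RPKM in CLP and 32.6, 29.3 and 26.7 RPKM in MPP4, and Anxa1 at 27.8, 20.1 and 28.2 RPKM and 79.5, 70.0 and 54.5 RPKM. In all 3 every CLP library was below every MPP4 library. Of 10 tested Rgs genes, which shorten G protein signals, 6 were called lower and 0 higher, with a median of −0.65.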
